A study of Ficus obtusifolia with 4 samples.

Results

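Seed flowers of the fig *Ficus obtusifolia*, collected before pollination or 24 hours after a pollinating wasp had entered the fig, were compared over 9331 of the 54550 transcripts of the assembly. A transcript was included when it had at least 10 mapped reads in each of the receptive libraries (gall and seed flowers), which leaves out transcripts seen only after the wasp had entered, and an RPKM above 20 in at least 1 of the seed flower libraries. RPKM is the number of reads mapped to a transcript, scaled by its length in kilobases and by the size of the library, so it is a level per length.

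All flowers came from a single recipient tree whose syconia had been bagged against other wasps. Receptive flowers were taken before any wasp was introduced, and pollinated flowers were taken 24 hours after the introduction of 1 foundress of *Pegoscapus hoffmeyerii* into each syconium. Seed flowers were recognised by their position near the syconium wall alone, gall flowers by their position near the lumen, and each library held flowers pooled from several syconia. There was 1 library for each flower type and stage, so the spread between samples is not known, no p-value is given, and flower stage cannot be told apart from any other difference between the libraries.

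A fig syconium is a closed inflorescence. The foundress carries pollen into it and lays eggs through the styles of some flowers, which become galls, while the other flowers receive only pollen and can set seed. In flowering plants generally, pollination starts a programme in the pistil that involves auxin and ethylene, ovule and ovary growth, loosening of cell walls, import of sugars and the decline of floral organs that are no longer needed.

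The receptive seed library stood apart from the other libraries, and every ratio below rests on it. Over the 9331 transcripts, the correlation of log2 RPKM was 0.79 between receptive and pollinated seed flowers, 0.70 between receptive seed and receptive gall flowers, 0.86 between pollinated seed and receptive gall flowers, and 0.90 between pollinated seed and pollinated gall flowers. It also had the fewest mapped reads, 11584069, against 22141107 in pollinated seed flowers and 51063005 and 58969477 in receptive and pollinated gall flowers. Counts against both receptive libraries are therefore given beside the main counts, and the part of that library in each result was not tested.

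In pollinated seed flowers, 996 transcripts (10.7%) were at least 2-fold higher and 1067 (11.4%) at least 2-fold lower than in receptive seed flowers; these are called higher and lower from here on. The other 7268 (77.9%) lay within 2-fold. The median log2 ratio over all 9331 was -0.06, with quartiles of -0.57 and 0.46. Changes of 10-fold or more were seen in 52 transcripts that were higher and 51 that were lower. An RPKM minimum in either library lets in transcripts through the library where they are high. Of the 6754 transcripts above 20 RPKM in both libraries, 323 were called higher and 552 lower, while 1469 passed through pollinated flowers only and 1108 through receptive flowers only. Members had a median of 689 reads in receptive and 1378 reads in pollinated seed flowers. The exact 95% interval of the ratio excluded 1 for every called transcript, but these intervals cover counting error only.

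**Figure D1:**
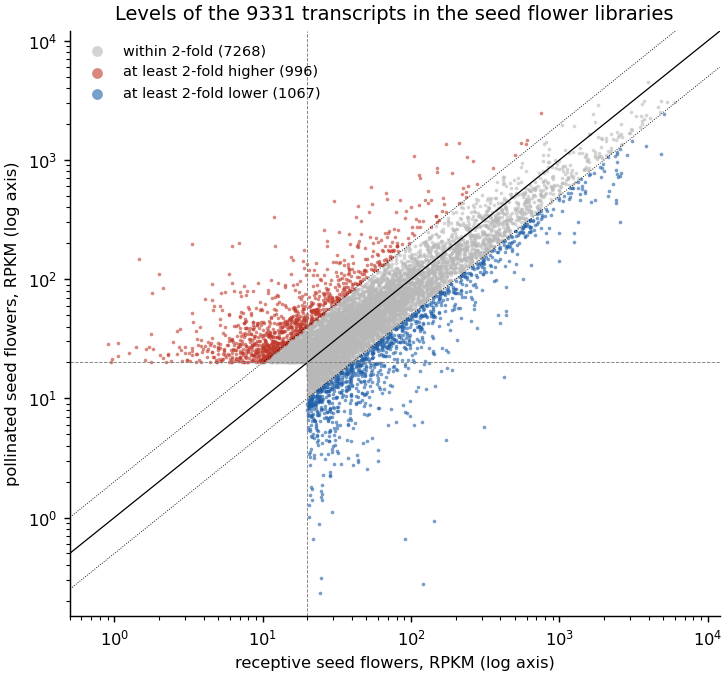
Each point is 1 of the 9331 transcripts, with RPKM in receptive seed flowers on the x axis and in pollinated seed flowers on the y axis, both logarithmic. The solid line marks equal levels, dotted lines a 2-fold difference, and dashed lines the minimum of 20 RPKM. The 996 red points were at least 2-fold higher and the 1067 blue points at least 2-fold lower, and most of the red points lie left of the dashed vertical line.

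The receptive seed library held the lowest level of all 4 libraries for 908 of the 996 higher transcripts and the highest for 968 of the 1067 lower ones. Over all 9331 it was the lowest for 2740 and the highest for 4065. Since both sets were chosen by the level in receptive seed flowers, the first counts are largely set by that choice. Pollinated seed flowers were at least 2-fold above both receptive libraries for 143 transcripts (1.53%) and at least 2-fold below both for 219 (2.35%). The median RPKM of the higher transcripts was 13.3 in receptive seed, 41.8 in pollinated seed, 45.1 in receptive gall and 45.1 in pollinated gall flowers. For the lower transcripts it was 63.9, 21.2, 28.7 and 22.5 in the same order. These medians, too, are those of sets chosen on the seed flower ratio, and are given as a description.

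The largest rise among described members of 300 bp or longer was that of beta-galactosidase 1 (Locus 1085), an enzyme that removes galactose from cell wall polysaccharides. Its RPKM was 1.47 in receptive and 147.3 in pollinated seed flowers (ratio 100.04, interval 75.6 to 135.3), and 62.2 and 318.8 in receptive and pollinated gall flowers. A CASP-like membrane protein (Locus 855), of a family named after proteins of the Casparian strip, had 3.36 and 196.6 RPKM, a ratio of 58.6. An alpha-amylase/subtilisin inhibitor (Locus 15897), of a kind known from cereal grains, had 1.99 and 109.5 RPKM, a ratio of 54.9. All of these were also higher in pollinated than in receptive gall flowers.

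Several of the other large rises were in sugar transport and lipid metabolism. The bidirectional sugar transporter N3 (Locus 20921), a member of the SWEET family that moves sucrose or hexoses across membranes, had 1.80 RPKM in receptive and 77.2 in pollinated seed flowers. The ratio was 43.0 (interval 29.8 to 64.3), and in gall flowers the levels were 9.74 and 182.5. The sugar transporter ERD6-like 7 (Locus 4978) had 4.57 and 91.4 RPKM in seed flowers, and 36.6 and 140.0 in gall flowers. A lipoxygenase (Locus 2519), which oxidises polyunsaturated fatty acids, had 2.13 and 84.3 RPKM in seed flowers. Its ratio of 39.5 (interval 28.2 to 57.2) had no counterpart in gall flowers, where the levels were 145.6 and 106.5. Long chain acyl-CoA synthetase 1 (Locus 9392), which activates fatty acids for wax and cutin in *Arabidopsis*, had 1.06 and 22.8 RPKM in seed flowers and moved the other way in gall flowers, from 102.8 to 28.3.

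The remaining transcripts among the 12 largest rises were mixed in function. Lectin KM+ (Locus 32872), a mannose-binding lectin described from jackfruit, another member of the fig family, had 1.06 and 29.3 RPKM, a ratio of 27.7. It was near absent in receptive gall flowers too, at 1.34, and reached 53.5 in pollinated gall flowers. An L-ascorbate oxidase homolog (Locus 524), of the multicopper oxidases, had 0.905 and 28.7 RPKM. Bifunctional nuclease BFN1 (Locus 22557), linked in *Arabidopsis* to senescence and cell death, had 0.944 and 20.02 RPKM, a ratio of 21.2 (interval 11.7 to 42.8) that rests on 11 reads in receptive seed flowers. A ubiquitin carboxyl-terminal hydrolase (Locus 9041) and the ACI112 protein (Locus 13260) had ratios of 19.5 and 22.1. Of the 12 rises, 9 were also at least 2-fold above the receptive gall library.

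**Figure D2:**
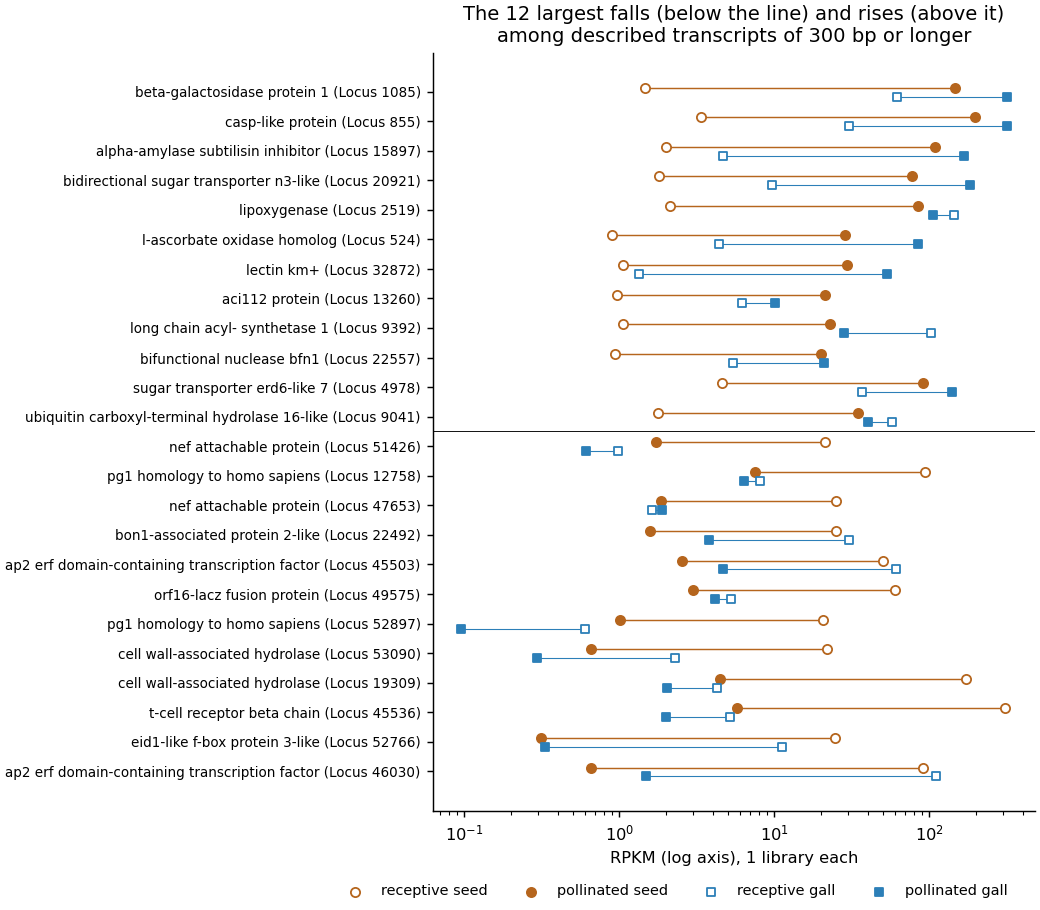
RPKM on a logarithmic axis, in each of the 4 libraries, for the 12 described transcripts with the highest ratio (above the line) and the 12 with the lowest (below it). Circles are seed flowers, squares gall flowers, open symbols receptive and filled symbols pollinated. Beta-galactosidase 1 goes from 1.47 to 147.3 in seed flowers, and the AP2/ERF factor at the foot goes from 90.6 to 0.656.

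The largest falls with a known function in plants were in regulators. An AP2/ERF transcription factor (Locus 46030) had 90.6 RPKM in receptive and 0.656 in pollinated seed flowers, from 1516 and 21 reads, and was 138-fold lower (interval 89.9 to 224). In gall flowers it had 110.7 and 1.48 RPKM. A second factor of that family (Locus 45503) had 50.2 and 2.56 RPKM, and 60.7 and 4.67 in gall flowers. An EID1-like F-box protein (Locus 52766), a substrate adaptor of ubiquitin ligases that acts in light signalling in *Arabidopsis*, had 24.7 and 0.314 RPKM, and a BON1-associated protein (Locus 22492), of a family that restrains cell death in *Arabidopsis*, had 25.2 and 1.58. In gall flowers these 4 transcripts had between 11.2 and 110.7 RPKM before and between 0.334 and 4.67 RPKM after pollination.

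The other 8 of the 12 largest falls carried descriptions with no known role in plants: T-cell receptor beta chain, cell wall-associated hydrolase, PG1 homology, ORF16-lacZ and NEF attachable protein. T-cell receptor beta chain (Locus 45536) had 308.9 RPKM in receptive seed flowers, 5.74 in pollinated seed flowers, and 5.19 and 2.02 in gall flowers. Names of this kind, without the T-cell receptor, were gathered after their values were seen, with streptomycin adenyltransferase, TAR1 and "cytochrome p450 liketbp", into a list of 32 transcripts. It took 1.31% of the reads of receptive seed flowers against 0.424% in pollinated seed, 0.348% in receptive gall and 0.235% in pollinated gall flowers. Of the 32, 22 were lower and 1 higher in pollinated seed flowers. The streptomycin adenyltransferase transcript (Locus 8420) alone went from 2546.5 to 300.8 RPKM. Some of these names are given in databases to reading frames on ribosomal RNA, and the part of the receptive seed library in this result was not tested.

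Gene lists were drawn from words in the descriptions, and each is summarised by its shift, the median log2 ratio of the list minus the median of all 9331 transcripts. Of 48 lists with at least 5 members, 16 had a shift of 0.32 or more and 5 of -0.32 or less. Transcripts that share a description are often pieces of the same gene, so the members of a list are not independent. Over all 9331, 10.7% were higher, 11.4% lower, 1.53% at least 2-fold above both receptive libraries and 2.35% below both. These shares are the background for the counts of each list.

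Auxin moves between cells through carriers and acts through response factors and a set of quickly induced genes, among them the small auxin-up RNA (SAUR) genes. The auxin list held 58 members, 17 lower and 2 higher, with a shift of -0.24. Of its 17 lower members 14 were SAUR-type: of 19 SAUR-type members (59 such transcripts in the whole table), 14 were lower and 0 higher, with a shift of -1.93. A SAUR family transcript (Locus 16002) had 132.6 RPKM in receptive and 19.8 in pollinated seed flowers, a 6.71-fold fall, and auxin-induced protein 10A5 (Locus 44490) had 121.3 and 19.5. In gall flowers 13 of the 19 were lower, with a shift of -1.86; Locus 16002 had 31.2 and 8.23 RPKM there. All 19 had a lower level in receptive gall than in receptive seed flowers, and 5 were at least 2-fold lower than both receptive libraries.

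None of the 8 auxin response factors and none of the 5 auxin carriers was called either way. Auxin response factor 2 (Locus 645) had 99.96 and 108.9 RPKM, and an influx carrier (Locus 3395) had 44.4 and 55.0. An indole-3-acetic acid-amido synthetase (Locus 12222), which inactivates auxin by joining it to amino acids, had 2.13 RPKM in receptive and 21.8 in pollinated seed flowers, a ratio of 10.2. It had 1.19 and 12.6 RPKM in gall flowers, and so was higher in both flower types. Another transcript of that description (Locus 9730) was lower in seed flowers, with 23.7 and 11.3 RPKM, and had 21.1 and 12.9 in gall flowers. The first of these transcripts and the SAUR-type, response factor and carrier groups were picked out after their values were seen.

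Ethylene is made from its precursor by ACC oxidase, is sensed by receptors that repress the response, and acts through EIN3-like and AP2/ERF factors. ACC oxidase (Locus 25168) had 70.3 and 177.2 RPKM in seed flowers (ratio 2.52, interval 2.37 to 2.69), and 39.6 and 126.8 in gall flowers. An ethylene receptor (Locus 7918) had 4.51 and 29.2 RPKM, a ratio of 6.46, and an ethylene insensitive 3-like protein (Locus 23360) had 8.41 and 21.1. Of 16 members described as AP2/ERF factors, grouped after their values were seen, 8 were lower and 1 higher, with a shift of -1.03 in seed and -1.01 in gall flowers. The most abundant of them (Locus 2590) had 262.9 and 89.0 RPKM in seed flowers and 257.5 and 73.9 in gall flowers. Against both receptive libraries 6 of the 16 stayed lower. The full ethylene list of 30 had a shift of 0.19, which turned to -0.10 with the length trend removed, with 9 lower and 4 higher.

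The cytokinin list (14 members) had a shift of 0.33 with 1 called member, zeatin O-glucosyltransferase (Locus 23911), which stores cytokinin in an inactive form, at 5.80 and 23.3 RPKM. The abscisic acid list (26) had a shift of 0.35, with 3 higher and 2 lower. Both shifts were under 0.32 once the trend of the ratio with transcript length, described below, was removed (0.16 and 0.19). A protein phosphatase 2C (Locus 10303), a family that includes repressors of abscisic acid signalling, had 187.5 and 17.2 RPKM in seed flowers and 257.0 and 22.7 in gall flowers, a 10.9-fold and an 11.3-fold fall. The jasmonate list (17 members, shift -0.06, and -0.33 with the length trend removed) held 2 higher and 2 lower in seed flowers. In gall flowers 5 were higher and 3 lower. Its largest rise in seed flowers was that of the lipoxygenase above, with a ratio of 39.5. Jasmonate O-methyltransferase (Locus 44024), which makes methyl jasmonate, had 131.9 and 26.5 RPKM, and 62.5 and 10.7 in gall flowers. A gibberellin-regulated protein (Locus 9621) had 510.2 and 134.8 RPKM, and 134.1 and 33.9 in gall flowers.

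MADS-box factors set the identity of floral organs and ovules. Of 18 members of this list, 8 were higher and 0 lower, with a shift of 0.70 in seed flowers and 0.13 in gall flowers. An AGAMOUS-like transcript (Locus 3630) had 7.14 RPKM in receptive and 71.8 in pollinated seed flowers (ratio 10.1, interval 8.40 to 12.1), and 48.5 and 44.5 in gall flowers. SEPALLATA 3 (Locus 45493) had 81.7 and 259.7 RPKM, and 215.8 and 270.1 in gall flowers. Not all moved: AGL15 (Locus 34189), active in embryos in *Arabidopsis*, had 172.8 and 162.8 RPKM in seed and 25.3 and 59.9 in gall flowers. The receptive seed library was the lowest of the 4 for 12 of the 18, and over members of 500 bp or longer the shift was 0.07. At least 2-fold above both receptive libraries were 2 of the 18, against 1.53% of all 9331 transcripts. The list included an ULTRAPETALA and a MADS box interactor, neither a MADS-box protein itself.

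Among the other transcription factors, the NAC list (15 members) had a shift of 0.41 (0.23 with the length trend removed) and 4 higher, the bHLH list (20) 0.27 and 6 higher, and neither had a lower member. A NAC factor (Locus 1541) had 17.5 and 70.8 RPKM, and 43.6 and 103.1 in gall flowers. BHLH49 (Locus 3621) had 7.47 and 32.9 RPKM, and 17.2 and 61.5 in gall flowers. The MYB list (27 members, 2 higher and 3 lower) and the WRKY list (8 members, 1 higher and 2 lower) had shifts of -0.01 and 0.11.

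Sugar transporters bring carbon into growing ovaries. Of 12 members, 4 were higher and 0 lower, with a shift of 0.86 in seed and 0.46 in gall flowers, and their summed RPKM was 437.3 in receptive and 865.1 in pollinated seed flowers against 403.8 and 932.0 in gall flowers. Besides the N3 and ERD6-like 7 transcripts above, another ERD6-like 7 (Locus 69) had 35.5 and 143.7 RPKM, and 40.5 and 192.4 in gall flowers, and 3 of the 12 were at least 2-fold above both receptive libraries. Sucrose synthases and invertases (9 members, shift 0.17) had 1 called member, an alkaline/neutral invertase (Locus 1009) at 14.3 and 29.4 RPKM. In starch metabolism, granule-bound starch synthase (Locus 299), which makes amylose, had 39.0 and 196.4 RPKM, a ratio of 5.04 (interval 4.67 to 5.44). It had 213.3 and 113.9 RPKM in gall flowers. An alpha-amylase (Locus 3808), which breaks starch down, had 53.0 and 12.8 RPKM in seed and 25.5 and 37.5 in gall flowers. Each was the called member of its list farthest from 1. The starch synthesis list (7 members, 1 higher, 1 lower, 3 above 1) had a shift of -0.12. For starch breakdown (5 members, 0 higher, 1 lower, 2 above 1) it was -0.28. These shifts became -0.30 and -0.60 with the length trend removed, but 0.40 and 0.18 with an RPKM minimum of 5.

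Pectin-cutting enzymes and expansins had positive shifts. Polygalacturonases and pectate lyases, which cut pectin, had 5 of 12 members higher and 0 lower, with a shift of 0.89 in seed and -0.13 in gall flowers. A polygalacturonase of the At1g48100 type (Locus 791) had 7.06 and 49.0 RPKM, and 5.36 and 24.8 in gall flowers. Expansins, which loosen the wall, had 2 of 10 higher and 1 lower, with a shift of 0.71. Alpha-expansin 11 (Locus 3414) had 18.0 and 68.7 RPKM, and 25.2 and 140.6 in gall flowers, whereas alpha-expansin 1 (Locus 6850) had 146.4 and 239.5 in seed and 343.6 and 232.4 in gall flowers.

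For xyloglucan endotransglucosylases and cellulose synthases the shifts had opposite signs in the flower types. Xyloglucan endotransglucosylases, which cut and rejoin hemicellulose, had a shift of 0.52 over 5 members in seed flowers and -0.80 in gall flowers. Of the 5, 4 had a ratio above 1 in seed flowers, but only 1 was called higher and 1 lower. The lower one (Locus 416) had 35.0 and 10.6 RPKM in seed and 34.6 and 44.7 in gall flowers, against the list in both. Cellulose synthases had 0.52 over 10 members and -0.62, but the seed flower shift was 0.13 with the length trend removed. A cellulose synthase (Locus 776) had 12.1 RPKM in receptive and 71.1 in pollinated seed flowers, a ratio of 5.88, and 143.3 and 85.2 in gall flowers. A pectin methylesterase (Locus 171), which removes methyl groups from pectin, had 18.6 and 141.6 RPKM, and 653.0 and 206.8 in gall flowers. For both transcripts the pollinated libraries lay between the receptive libraries, and the difference between flower types was not tested.

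**Figure D3:**
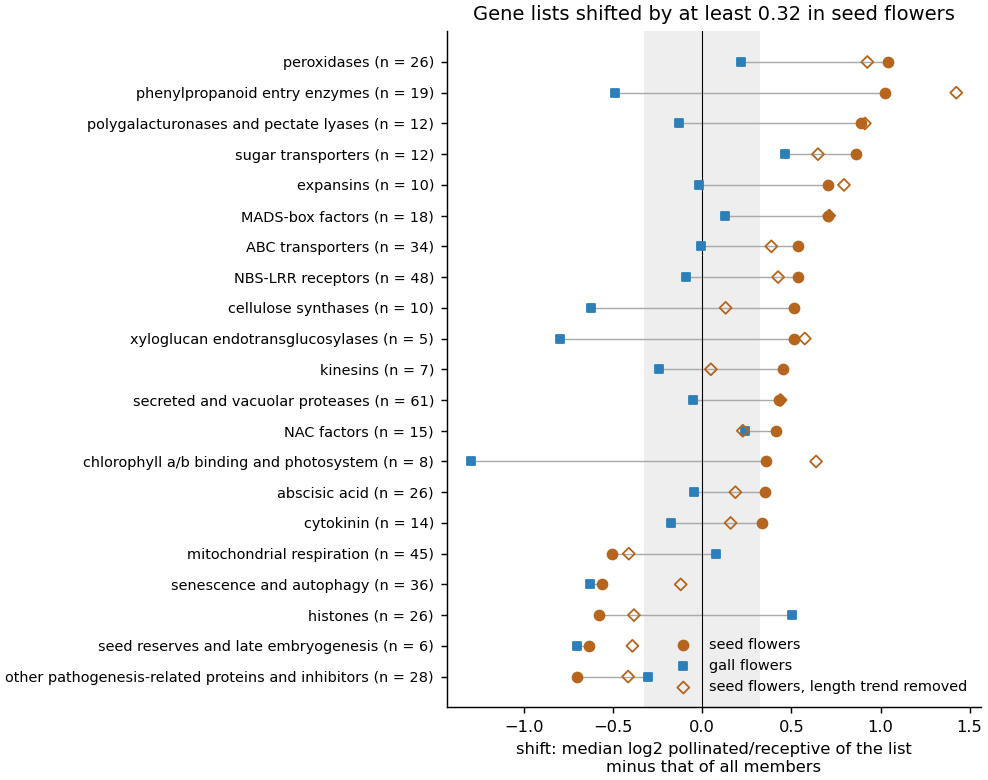
Shift of each list that passed 0.32 in seed flowers, on a log2 scale: brown circles for pollinated against receptive seed flowers, blue squares for gall flowers, open diamonds for seed flowers with the length trend removed. The grey band marks shifts under 0.32. Peroxidases and phenylpropanoid entry enzymes head the list at 1.04 and 1.03, and histones stand at -0.58 in seed against 0.50 in gall flowers.

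Phenylalanine ammonia-lyase, cinnamate 4-hydroxylase and 4-coumarate ligase open the route to lignin and flavonoids. Of 19 such members, 9 were higher and 1 lower, with a shift of 1.03 in seed flowers and -0.49 in gall flowers. A cinnamate 4-hydroxylase (Locus 21721) had 22.05 RPKM in receptive and 119.1 in pollinated seed flowers (ratio 5.40, interval 4.58 to 6.42), and 555.6 and 378.1 in gall flowers. Of the 19, 18 had a higher level in receptive gall than in receptive seed flowers, and 9 were shorter than 300 bp. At least 2-fold above both receptive libraries were 0 of the 19, against 1.53% of all 9331 transcripts. Over members of 500 bp or longer the shift was 0.13. The summed RPKM of the list was 1738 and 2149 in seed flowers and 7484 and 5612 in gall flowers.

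The flavonoid enzymes downstream had a shift of 0.07 over 62 members, 13 higher and 4 lower, and of 0.37 with the length trend removed. Of the 62, 39 were shorter than 300 bp. Among them a flavanone 3-hydroxylase fragment (Locus 15251) had 38.0 and 237.2 RPKM in seed and 1522 and 1123 in gall flowers. The 26 chalcone synthase members, the entry enzyme of flavonoids, had a shift of -0.38, which turned to 0.10 with the length trend removed, and 23 of them were shorter than 300 bp. Their summed RPKM was 7156 and 5653 in seed flowers against 28434 and 24145 in gall flowers. For these enzymes the flower type separated the libraries more than the stage did. Monolignol enzymes and laccases (24 members) had a shift of 0.04 and 2 higher.

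Volatile and surface lipid genes included several of the same kind. A germacrene D synthase (Locus 20881), which makes a sesquiterpene scent compound, had 6.23 RPKM in receptive and 93.3 in pollinated seed flowers (ratio 14.97, interval 11.4 to 20.02), but 456.7 and 93.9 in gall flowers. Another transcript of that description (Locus 8547) had 597.1 and 360.1 RPKM in seed and 753.9 and 371.2 in gall flowers, so the transcripts of this enzyme, named after their values were seen, did not all rise in seed flowers. WAX2-like (Locus 795), an enzyme of cuticular wax, had 3.77 and 39.5 RPKM, and 104.7 and 87.4 in gall flowers. A GDSL esterase/lipase (Locus 802) had 45.8 and 307.1 RPKM, and 75.8 and 197.0 in gall flowers. The lipid transfer and cuticle list of 34 held 6 higher and 3 lower, with a shift of 0.23.

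Peroxidases, which cross-link wall polymers and use or form hydrogen peroxide, had the largest shift of the 48 lists, 1.04, with 13 of 26 members higher and 2 lower. Cationic peroxidase 1-like (Locus 2176) had 4.06 RPKM in receptive and 68.7 in pollinated seed flowers (ratio 16.9, interval 13.9 to 20.8), and 82.5 and 261.8 in gall flowers. Peroxidase 55 (Locus 11131) had 1.75 and 20.2 RPKM, and 1.03 and 35.4 in gall flowers. The most abundant member (Locus 633) had 656.4 and 354.9 RPKM in seed and 627.5 and 389.1 in gall flowers, within 2-fold in both. In gall flowers 6 of the 26 were higher and 4 lower, with a shift of 0.22, and 2 were above both receptive libraries in seed flowers. With the RPKM minimum raised to 50 the shift was 0.24, and with a mean RPKM above 20 it was 0.51.

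Proteases of the secretory pathway and vacuole had 24 of 61 members higher and 1 lower, with a shift of 0.43, and 9 of them were at least 2-fold above both receptive libraries. In gall flowers 4 of the 61 were higher and 1 lower, with a shift of -0.05. Receptive seed flowers were the lowest of the 4 libraries for 29 of the 61. A subtilisin-like protease (Locus 19513) had 12.1 and 188.0 RPKM, a ratio of 15.5 (interval 14.2 to 16.9), and 39.1 and 71.6 in gall flowers. A cysteine proteinase (Locus 1320) had 52.3 and 363.2 RPKM, and 20.2 and 233.1 in gall flowers, and serine carboxypeptidase-like 20 (Locus 2552) had 7.68 and 74.1, and 5.93 and 18.9. Of the 27 aspartic protease members 11 were higher. The only lower member, an aspartic proteinase (Locus 22474), had 563.4 and 244.4 RPKM in seed and 172.1 and 205.5 in gall flowers.

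Pathogenesis-related proteins and inhibitors other than chitinases and glucanases were lower as a list, with 11 of 28 members lower and 4 higher and a shift of -0.70. Thaumatin-like proteins, of an antifungal family, made up 15 of them, 7 lower and 1 higher. A thaumatin-like protein (Locus 4017) had 400.2 RPKM in receptive and 147.6 in pollinated seed flowers, and 183.2 and 134.5 in gall flowers. The exceptions were large: major latex protein (Locus 2619) had 5.55 and 78.3 RPKM, a ratio of 14.1, and 19.1 and 171.7 in gall flowers. Receptive seed flowers were the highest of the 4 libraries for 19 of the 28.

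NBS-LRR receptors, which recognise pathogens inside the cell, had 10 of 48 members higher and 3 lower and a shift of 0.54. A resistance protein of the At5g66900 type (Locus 32442) had 4.56 and 66.6 RPKM, and 64.1 and 62.7 in gall flowers. The nematode-resistance protein (Locus 21642) had 154.9 and 53.4 RPKM, and 233.8 and 96.4 in gall flowers. It entered the list through the words "resistance protein", and its description does not name an NBS-LRR receptor. Only 48 of the 777 transcripts with such a description passed the minimums. Among the members 0 were at least 2-fold above both receptive libraries, against 1.53% of all 9331 transcripts, a share that leaves few to be seen among 48.

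Membrane transport and calcium signalling lists showed a few large changes. ABC transporters had 8 of 34 members higher and 1 lower, with a shift of 0.54, among them a G family member (Locus 510) at 14.1 and 85.1 RPKM in seed and 14.01 and 24.8 in gall flowers. In gall flowers 0 of the 34 were higher and 1 lower, with a shift of -0.005. At least 2-fold above both receptive libraries was 1 of the 34, and receptive seed flowers had the lowest level of all libraries for 20. Aquaporins (17 members, 3 higher, 0 lower) had a shift of 0.08 (0.40 with the length trend removed), and a PIP-type aquaporin (Locus 13594), a water channel of the plasma membrane, had 163.7 and 474.8 RPKM. Calcium signalling (55 members, 7 higher and 6 lower) had a shift of 0.22. Its extreme was a calmodulin-binding protein (Locus 521) with 1.39 and 27.0 RPKM in seed and 2.23 and 108.7 in gall flowers.

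**Figure D4:**
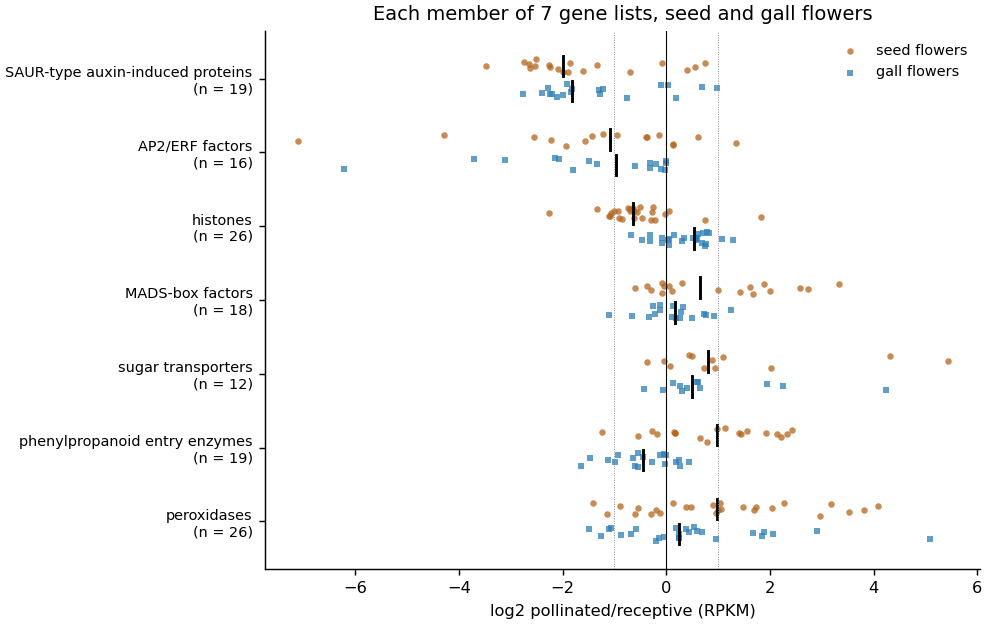
Log2 ratio of pollinated to receptive RPKM for every member of 7 lists, brown circles for seed and blue squares for gall flowers; vertical bars are medians and dotted lines mark 2-fold. Most SAUR-type and AP2/ERF members lie to the left of 0 in both flower types, while the medians of the histone and phenylpropanoid lists lie on opposite sides of 0 in seed and gall flowers.

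Histones, made mainly while DNA is copied, had 6 of 26 members lower and 1 higher and a shift of -0.58, and histone H2B (Locus 682) had 993.0 RPKM in receptive and 463.8 in pollinated seed flowers. In gall flowers the histone shift was 0.50 and Locus 682 had 263.6 and 467.0 RPKM. The receptive seed library was the highest of the 4 for 21 of the 26, and the summed RPKM was 5649 in receptive seed, 3463 in pollinated seed, 2433 in receptive gall and 3247 in pollinated gall flowers. Cyclins and cell cycle kinases (17 members, 1 higher) had a shift of 0.28, and 0 of 4 DNA replication members were called.

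Mitochondrial respiration had 4 of 45 members lower (8.89%, against 11.4% of all transcripts) and 0 higher, with a shift of -0.50. An ATP synthase subunit beta fragment (Locus 21301) had 1748 and 460.7 RPKM in seed and 419.4 and 451.8 in gall flowers. The 162 cytosolic ribosomal proteins had a shift of -0.13, which turned to 0.09 with the length trend removed, with 9 higher and 3 lower. Heat shock proteins and chaperones (52 members) had a shift of 0.13, with 9 higher and 3 lower. Among them HSP90 (Locus 441), a chaperone of signalling proteins, had 77.7 and 225.7 RPKM, while a small heat shock protein (Locus 3967) had 115.0 and 47.3 and fell in gall flowers as well, from 116.4 to 29.4.

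Chlorophyll-binding and photosystem transcripts differed by flower type. In gall flowers 7 of the 8 members were lower, with a shift of -1.30. In seed flowers 2 were higher and 0 lower, with a shift of 0.36. Light-harvesting protein LHCB1 (Locus 264) had 243.3 and 259.2 RPKM in seed and 290.1 and 119.1 in gall flowers. The 8 are few of the 42 such transcripts in the table, and with a lower RPKM minimum the seed flower shift was of the opposite sign.

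Seed reserve and late embryogenesis transcripts were few, and 3 of 6 were lower, with a shift of -0.64. A late embryogenesis abundant protein (Locus 37719), a family that protects drying tissue, had 432.9 and 50.3 RPKM in seed and 152.1 and 34.0 in gall flowers. The senescence and autophagy list (36 members, 7 lower and 1 higher) had a shift of -0.56 in seed and -0.63 in gall flowers. In seed flowers the shift was -0.12 with the length trend removed. Of the 36, 18 were shorter than 300 bp. A group of 21, gathered after values were seen, was described only as senescence-associated protein, and 17 of these were shorter than 300 bp. The group had a shift of -0.61 in seed flowers, and of -0.09 with the length trend removed. The most abundant long member of the list was an auxin-repressed protein (Locus 11254), at 806.0 and 243.8 RPKM in seed and 370.3 and 122.8 in gall flowers. A senescence-associated protein (Locus 6162) had 1.70 and 26.8 RPKM, and 21.6 and 19.6 in gall flowers.

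Transcripts with pollen words were followed separately. Of 21 such transcripts in the table, 9 were members, and 3 of these were lower and 0 higher. A calcium-binding pollen allergen (Locus 47072), of a family also present in other tissues, had 116.2 and 39.2 RPKM. The summed RPKM of all 21 was 1054 in receptive and 966.5 in pollinated seed flowers, and 961.5 and 1017 in gall flowers. The list of receptors and peptides of pollination and fertilisation had 16 members with 1 higher and 1 lower. A transcript described as S3 self-incompatibility locus-linked pollen protein (Locus 16091), a description from *Petunia*, had 2.49 and 29.7 RPKM, a ratio of 11.9, and 47.4 and 31.2 in gall flowers. COBRA-like 7 (Locus 4105), a cell surface protein, had 24.8 and 8.47 RPKM.

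Further markers of other organisms were rare. Hymenopteran descriptions had 2 reads in receptive and 23 in pollinated seed flowers over 497 transcripts, against 45619 in pollinated gall flowers, and none of them was a member. The 2 fungal descriptions had 82 and 413 reads, also with no member. The 2 stamen members were not called.

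The ratio fell with decreasing transcript length. In seed flowers the median log2 ratio was 0.24 for the 3201 transcripts over 2000 bp, -0.10 for the 2768 between 1000 and 2000 bp, -0.42 for the 1269 between 500 and 1000 bp, -0.56 for the 693 between 300 and 500 bp, -0.34 for the 438 between 200 and 300 bp and -0.55 for the 962 under 200 bp. The share called lower was 2.37% over 2000 bp and 26.1% under 200 bp, while the share called higher stayed between 9.72% and 14.4%. Lower transcripts had a median length of 488 bp and higher ones 1506 bp.

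The same dependence was seen between receptive gall and receptive seed flowers, where the median went from 0.10 over 2000 bp to -0.99 between 300 and 500 bp. Between pollinated gall and pollinated seed flowers it stayed between -0.21 and -0.16 in all length classes. Between the gall stages it ranged from -0.07 to 0.22. Of these 4 comparisons, the 2 with the strong trend are those that contain the receptive seed library, and the part of that library in the trend was not tested. With the trend removed, 11 of the 16 lists with a positive shift and 4 of the 5 with a negative shift still passed 0.32.

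**Figure D5:**
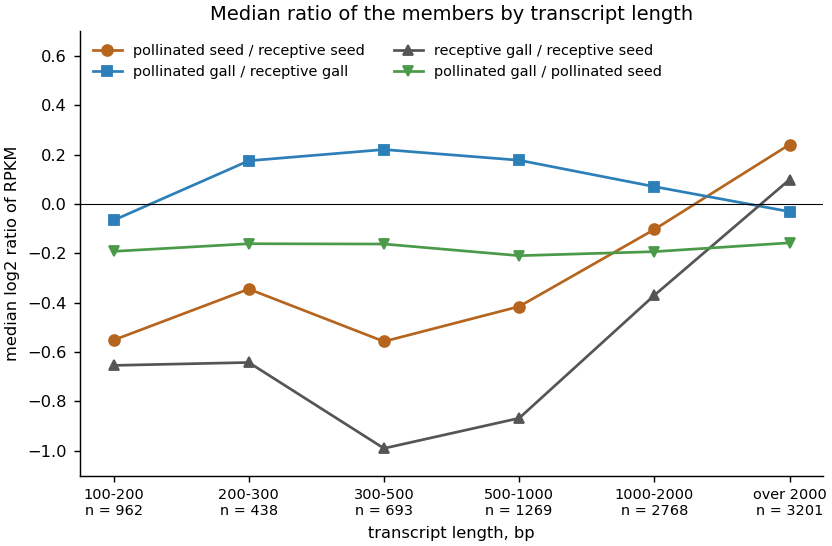
Median log2 ratio of RPKM in 6 classes of transcript length, with the number of transcripts under each class. Brown circles compare pollinated with receptive seed flowers, blue squares the same stages in gall flowers, grey triangles the receptive flower types and green triangles the pollinated flower types. The brown line runs from -0.55 to 0.24 and the green line stays near -0.2.

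Gene Ontology terms were also compared. Of 131 terms with at least 30 members, the lowest shifts were those of nucleosome assembly (-0.45 over 30 members), ribosome (-0.17 over 103), cell redox homeostasis (-0.15), structural constituent of ribosome (-0.13) and translation (-0.12). The highest were peroxidase activity (0.87 over 31 members, 13 higher and 2 lower), cation binding (0.82 over 34, 15 higher and 0 lower), 2-alkenal reductase activity (0.57), biosynthetic process (0.47) and transmembrane transport (0.44 over 93, 23 higher and 2 lower). The ribosome and translation shifts were 0.05 each with the length trend removed.

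The most abundant described transcripts overlapped between stages. Peptidylprolyl isomerase D (Locus 17912), a protein-folding enzyme, had 1926 RPKM in receptive and 1498 in pollinated seed flowers, the highest described level of the latter. A BRU1-type brassinosteroid-regulated protein (Locus 23065), a wall enzyme, had 1422 and 1147. The 21 kDa protein (Locus 50267) and a BURP domain protein (Locus 19452) were among the most abundant of receptive flowers with 2425 and 2405 RPKM and had 762.0 and 823.9 after pollination. Both were also lower in pollinated gall flowers, at 332.6 against 1716 and at 453.5 against 1548. Alpha tubulin 1 (Locus 17280), 60S ribosomal protein L23 (Locus 32500) and GDP-L-galactose phosphorylase (Locus 21929), of vitamin C synthesis, stood at 860.3, 888.6 and 916.1 RPKM in pollinated flowers, all within 2-fold of the receptive level.

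Gall flowers of the same stages share no library with the seed flower comparison. Among the same 9331 transcripts, 451 (4.83%) were higher and 465 (4.98%) lower in pollinated than in receptive gall flowers. Of the 996 transcripts higher in seed flowers, 114 (11.4%) were also higher and 68 lower in gall flowers. These 114 were 25.3% of the 451. Of the 1067 lower in seed flowers, 215 (20.1%) were also lower and 51 higher in gall flowers, and the 215 were 46.2% of the 465.

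The transcripts that stood above both receptive libraries by the most, chosen after their values were seen, were the alpha-amylase/subtilisin inhibitor and lectin KM+ at 23.3 and 21.9 times the nearer of the receptive levels. They were followed by a replicase polyprotein (Locus 5080), a description of RNA viruses, with 6.398 and 79.1 RPKM in seed and 4.58 and 57.8 in gall flowers over a transcript of 8500 bp. A germin-like protein (Locus 4560) had 3.59 and 31.4 RPKM, and 1.501 and 89.4 in gall flowers. Below both receptive libraries stood the AP2/ERF and F-box transcripts above, a GRAS factor (Locus 35041) at 50.4 and 4.39 RPKM in seed and 56.1 and 4.62 in gall flowers, and an isoflavone 2'-hydroxylase-like P450 (Locus 21054) at 70.2 and 6.03 RPKM and 63.9 and 5.25.

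Transcripts of the circadian clock were also named after their values were seen. LHY (Locus 29705), a morning factor of the *Arabidopsis* clock, had 5.15 RPKM in receptive and 59.1 in pollinated seed flowers (ratio 11.48, interval 9.97 to 13.3), and 9.71 and 43.0 in gall flowers. FKF1 (Locus 11338), which peaks late in the day in *Arabidopsis*, had 61.2 and 12.4 RPKM, and 44.2 and 9.58 in gall flowers. GIGANTEA (Locus 5363) had 19.4 and 23.1 RPKM in seed and 109.9 and 34.1 in gall flowers. The hour of the day of each collection is not given in the sources used here, so stage and hour cannot be told apart.

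At the RPKM minimum, the transcripts just inside had a highest level of 20.002 (Locus 29374, receptive), 20.005 (Locus 7830, receptive) and 20.008 (Locus 28331, pollinated), and those just outside had 19.998 (Locus 32534), 19.997 (Locus 32851) and 19.996 (Locus 12366). Another 30 transcripts passed the RPKM minimum but not the read minimum, 28 of them with fewer than 10 reads in receptive seed flowers. Among these, 8-hydroxyquercetin 8-O-methyltransferase (Locus 765) had 4 reads in receptive and 967 in pollinated seed flowers, a ratio of 126.5 (interval 49.2 to 465.1). A xyloglucan endotransglucosylase (Locus 5646) had 8 and 1585 reads, a ratio of 103.7 (interval 52.5 to 240.5). Both ratios were above that of beta-galactosidase 1, with wider intervals.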

How the data were processed

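RNA of 4 pooled libraries, 1 for each flower type and stage, was sequenced as paired-end reads. Per the submitters' processing notes and the study's methods, quality was inspected with FastQC 0.10.0, Trimmomatic 0.22 removed poor bases, Oases built a joint assembly in which each group of similar sequences is represented by its longest, and CLC Genomics Workbench placed the reads of every library on it. The deposited table holds a count of total reads and a count of unique reads for each transcript and library, none of them normalized. It also holds RPKM, which the authors derived from total reads, transcript length and library size, and the length, protein-match description and GO terms. RPKM rebuilt from counts and lengths differed by at most 5.0e-04. A further 12 columns repeat others and were not used. No transcript sequence is printed.

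From these, ratios of RPKM were computed with Python 3.11.15, numpy 2.4.6, pandas 2.3.3 and scipy 1.17.1, with exact conditional binomial 95% intervals from the read counts that cover counting error only. With 1 library per group no test was made: a transcript was called at a ratio of at least 2 or at most 0.5. Libraries held 11584069 to 58969477 mapped reads, and 10 reads was the least a member had in receptive seed flowers. Alternatives were TMM factors, equal summed RPKM, a median ratio of 1, uniquely mapped reads, other RPKM minimums, a pseudocount of 1, longer transcripts only, removal of the length trend (medians in 20 length bins), thinning, a 1.5-fold rule, the Z-test of Kal that the study used for other pairs, and the exact test of edgeR 4.0.16 with an assumed coefficient of variation of 0.4. The rules were tested on simulated counts that held counting error only and planted changes above 2-fold. Those counts had no spread between samples, so they cannot show how the rules do on single real libraries.

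The members and lists were chosen with earlier results of these data known. Words were searched in descriptions, and the words that keep a transcript out of a list were adjusted after descriptions had been seen. Named singly, among described transcripts of 300 bp or longer, were the 12 highest and 12 lowest ratios, the 2 most abundant members of each list, the called list member farthest from a ratio of 1 (of any length), and the 8 most abundant transcripts of each seed library; only part of these are printed. Other transcripts of the lists, and those said to be, were named after their values were seen.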

Additional observations from a re-analysis of the deposited data

Results flagged for a closer look

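Some list shifts had opposite signs in seed and gall flowers. None of these differences was tested, since each stage and flower type had 1 library. Histones had a shift of -0.58 in seed and 0.50 in gall flowers. The chlorophyll-binding and photosystem list had 0.36 in seed and -1.30 in gall flowers. Xyloglucan endotransglucosylases had 0.52 and -0.80, cellulose synthases 0.52 (0.13 with the length trend removed) and -0.62, and phenylpropanoid entry enzymes 1.03 and -0.49. Long chain acyl-CoA synthetase 1 (Locus 9392) had a ratio of pollinated to receptive RPKM of 21.5 in seed and 0.275 in gall flowers.

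Outside the members, 23 reads of pollinated seed flowers lay on transcripts with hymenopteran descriptions, against 2 reads in receptive seed flowers. Another 28 transcripts had fewer than 10 reads in receptive seed flowers although their RPKM was above 20 in a seed library.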

How the results depend on the processing

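With both libraries scaled to the same summed RPKM, 1594 transcripts were higher and 610 lower, the median log2 ratio moved by 0.30, and the share of called transcripts that were higher went from 48.3% to 72.3%. An RPKM minimum of 5 gave 2024 higher and 2019 lower, a minimum of 50 gave 403 and 622, and no minimum gave 2459 and 2968. Over transcripts of 500 bp or longer 753 were higher and 527 lower (58.8% higher), and with the length trend removed 1041 and 715 (59.3% higher). The 1.5-fold rule gave 1917 and 2296. Of the transcripts that passed the Z-test of Kal, 2448 were counted as higher and 1219 as lower. That test compared shares of the summed RPKM of the members, whereas the direction was read from the unscaled ratio. A transcript with a ratio near 1 can therefore be counted against the direction of its share, and the split is not that of the test. The exact test of edgeR with the assumed coefficient of variation called 69 higher and 61 lower. Against both receptive libraries, an alternative chosen after seeing the data, 143 were higher and 219 lower.

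Lists with a negative shift past the threshold numbered 3 at an RPKM minimum of 50, and lists with a positive one 10 at 500 bp or longer. The difference between the longest and shortest length class was 0.79, and 0.0158 with the trend removed. Transcripts higher in both flower types numbered 249, 51, 72 and 341 with an RPKM minimum of 5, of 50, a mean above 20 and no minimum. Those lower in both numbered 436, 134 and 673 with a minimum of 5, of 50 and none, and 140 at 500 bp or longer. The chlorophyll-binding list turned to -0.30 with a minimum of 5 and to -0.081 with none. Of 607 list shifts recomputed for 48 lists, 541 stayed close (within 0.32 and on the same side of that threshold), 64 moved and 2 turned. TMM factors, equal summed RPKM and a median ratio of 1 change every ratio by the same factor. That factor cancels in a shift, so values from these settings could not move. Only lists past 0.32 in the main setting could be counted as turned, so smaller shifts that changed sign are not among the 2. Of the 21 lists past 0.32, 6 with a positive and 2 with a negative shift stayed past it in every setting that left at least 5 members. The positive ones were sugar transporters, expansins, xyloglucan endotransglucosylases, polygalacturonases and pectate lyases, NBS-LRR receptors and ABC transporters. Xyloglucan endotransglucosylases had only 5 members, so a setting that left out any of them gave no value for that list. The negative ones were histones and the pathogenesis-related proteins and inhibitors. Of 1407 ratios recomputed for 201 named transcripts, 1055 stayed close (inside the counting interval of the main ratio), 352 moved and 0 turned. Only transcripts called higher or lower could be counted as turned, so a ratio within 2-fold that crossed 1 was counted as close or moved. The cause of each change was not tested.

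With 1 library per group, differences between individual samples of a stage cannot be told apart from the stage, and low levels in receptive seed flowers rest on the fewest reads. No paired analysis was possible because each group had 1 library.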
